A study of Mus musculus with 6 samples.

Results

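The 10 canonical WNT response genes examined here are Axin2, Lef1, Tcf7, Sp5, Nkd1, Notum, Znrf3, Rnf43, Apcdd1 and Tnfrsf19. They were taken by gene symbol from a table of 24975 genes, in which all 10 were present, and 9 had enough reads to be tested among 11913 genes. The 10th, Rnf43, was nearly undetected. RNA was sequenced from mouse mesoderm at embryonic day 7.5 to find genes that depend on Hedgehog signalling. Control embryos were Mesp1-Cre/+;R26-tdTomato/+, and embryos of the other group, called Gli3R, were Mesp1-Cre/+;R26-Gli3R-IRES-Venus/+, so that cells of the former carried a red reporter and cells of the latter Gli3R, a form of Gli3 that represses Hedgehog target genes, with a yellow-green reporter. Both groups carry Mesp1-Cre, a recombinase active in nascent mesoderm, so the transgene acts only in cells that expressed Mesp1 and in their descendants. Each of 3 litters gave 1 library per group, 3 a group, made from 1000 sorted cells of pooled embryos. The deposited table notes that control cells were sorted by tdTomato and Gli3R cells by Venus, so the reporter and the transgene cannot be told apart. The strain is not given in the sources used here.

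In canonical WNT signalling, a WNT ligand binds a Frizzled receptor and an LRP co-receptor and stops the destruction of β-catenin, which enters the nucleus and activates genes with the DNA-binding proteins of the TCF/LEF family. Several of the genes switched on in this way damp the signal again, at the membrane, outside the cell or at the destruction complex, and are used as readouts of it for that reason. In the gastrula the pathway is known for its role in the primitive streak and in the posterior mesoderm that leaves it.

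The TCF/LEF proteins are known to bind DNA around the letters CTTTG, best in the longer form CTTTGATC. The 250 bases before the start are shown for the 3 response genes whose level was lower with Gli3R in every litter, with each CTTTG on either strand (CAAAG on the other) in capitals. The sequences are those of RefSeq, build GRCm38.p6, and are written 5′ to 3′ in the direction of the gene. Windows of 1 chromosome were left out for the 10 genes, but not for the shares over all windows given below. Of the 10 genes, 7 had a window among those kept. The Sp5 window is chr2:70474673-70474922 on the plus strand and overlaps no other gene of GENCODE M21. The Lef1 window shown, at the most upstream of its 4 listed starts, is chr3:131110047-131110296 on the plus strand and overlaps an exon of the antisense gene Gm43352. The first and second start windows of Tnfrsf19 are chr14:61046856-61047105 and chr14:61037988-61038237 on the minus strand, and the second lies within the gene's own span and overlaps an exon of Gm41168 on the other strand.
Sp5: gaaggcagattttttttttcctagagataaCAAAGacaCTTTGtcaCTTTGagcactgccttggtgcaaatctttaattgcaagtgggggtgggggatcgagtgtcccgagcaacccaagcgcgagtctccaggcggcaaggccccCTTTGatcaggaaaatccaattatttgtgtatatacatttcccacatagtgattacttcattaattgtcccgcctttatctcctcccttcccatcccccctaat
Lef1: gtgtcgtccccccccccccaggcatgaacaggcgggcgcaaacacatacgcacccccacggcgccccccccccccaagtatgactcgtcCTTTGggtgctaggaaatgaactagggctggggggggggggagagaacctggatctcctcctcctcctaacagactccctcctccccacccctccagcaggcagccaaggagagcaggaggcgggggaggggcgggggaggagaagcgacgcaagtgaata
Tnfrsf19 first start: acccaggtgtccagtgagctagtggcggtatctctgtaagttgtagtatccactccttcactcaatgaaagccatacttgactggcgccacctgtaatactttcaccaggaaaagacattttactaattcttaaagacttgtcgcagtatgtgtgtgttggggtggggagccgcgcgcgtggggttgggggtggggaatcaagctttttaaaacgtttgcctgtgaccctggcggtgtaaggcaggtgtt
Tnfrsf19 second start: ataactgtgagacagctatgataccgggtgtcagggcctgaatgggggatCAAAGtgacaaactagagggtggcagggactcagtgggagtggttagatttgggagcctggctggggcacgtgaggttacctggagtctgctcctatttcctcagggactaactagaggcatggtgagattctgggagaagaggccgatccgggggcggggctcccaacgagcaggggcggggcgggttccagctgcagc
The Sp5 window held 4 matches to CTTTG, and the match that begins 104 bases before the start continued to the full CTTTGATC. At least 1 CTTTG was found in 48.6% of the 32851 windows of the same length, at least 4 in 0.773%, and CTTTGATC, which contains the shorter motif, in 0.801%. Lef1 held 1 CTTTG at the start shown, 161 bases before it, and 2, 1 and 3 at starts 2, 3 and 4. The windows of its first 2 starts overlap, and the match of the first is 1 of the 2 matches of the second. No Lef1 window held CTTTGATC. Tnfrsf19 held none at its first start and 1 CTTTGATC at its second. The windows of Axin2, Tcf7, Nkd1 and Rnf43 held no CTTTG. These matches describe letters in a short window, and the libraries do not measure binding.

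Library totals ran from 5481190 to 12635151 counts. Levels are given as CPM, counts divided by a library size that was adjusted for composition by TMM, the trimmed mean of M-values. Over all genes tested, 16 (0.134%) passed at an adjusted p under 0.05 (quasi-likelihood test of edgeR, adjusted by Benjamini-Hochberg), and 27 (0.227%) passed with litter as a block. Gli3 ran from 25.7 to 34.3 CPM in the control and from 38.9 to 50.8 CPM in the Gli3R libraries, and counts do not separate the transgene from the endogenous gene. Control replicate 1, the shallowest library, stood apart on the first principal component. The 10 mesoderm markers fixed for checking the tissue were all detected. Among them, Pdgfra stood at 53.2 to 68.6 CPM, Hand1 at 118 to 207 CPM and Mesp1 at 8.10 to 25.2 CPM. The lowest single value of the 10 was 1.02 CPM. They summed to 310 to 320 CPM in the control and 310 to 369 CPM in the Gli3R libraries. Hand1 was the largest part of that sum in every library and is also one of the extraembryonic mesoderm markers given below. Others of the 10 are shared with the presomitic and streak lists. Of the 10, 7 had a negative fold change, as had 51.8% of all genes, and 3 a positive one, with 0 called in either fit. Without the block, 3 were lower and 2 higher at an unadjusted p under 0.05 (edgeR test), beside 3.29% and 3.57% of all genes. The 7 visceral endoderm markers in the table summed to at most 32.5 CPM in any library. The 5 definitive endoderm markers summed to 70.3 to 78.5 CPM in the control and 64.7 to 91.6 CPM in the Gli3R libraries. Most of it was Cer1, at 53.7 to 67.1 CPM in the control and 56.3 to 84.5 CPM in the Gli3R libraries. Foxa2 had 3, 11 and 5 reads in the control and 0 in each Gli3R library, too few to test. Of the 3 tested, 2 had a negative fold change and 1 a positive one, with 0 called in either fit. The 8 blood and endothelium markers summed to 274 to 516 CPM in the control and 325 to 765 CPM in the Gli3R libraries. Of the 7 of these tested, 6 had a positive fold change and 1 a negative one, and 0 were called in either fit. The 5 extraembryonic ectoderm markers summed to 4.18 to 7.22 CPM in the control and 1.70 to 3.58 CPM in the Gli3R libraries; most of it was Ascl2, which was lower in every Gli3R library than in any control but did not pass (edgeR quasi-likelihood test, adjusted p = 0.512), and Elf5 had no read.

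No WNT response gene changed past the threshold. Of the 9 tested, 0 passed the edgeR quasi-likelihood test over all genes with or without the litter block, beside 0.134% and 0.227% of all genes tested, and 0 passed in DESeq2. At an unadjusted p under 0.05 in the edgeR test without the block, 2 of the 9 were lower with Gli3R (Lef1 and Tnfrsf19) and 0 higher, beside 3.29% and 3.57% of all genes. With litter as a block, 3 of the 9 were under 0.05, Lef1, Sp5 and Tnfrsf19, all lower. In that fit 1040 of the 11913 genes were under 0.05 in either direction. The median log2 fold change of the 9 was 0.03, beside -0.00786 for all genes tested. The genes did not share a direction: 4 had a fold change below 0, as had 51.8% of all genes, and 5 above. Lef1, Sp5 and Tnfrsf19 were lower with Gli3R in all 3 litters, as were 15.3% of all genes, and none of the 9 was higher in all 3 litters, as were 15.0% of all genes.

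**Figure D1:**
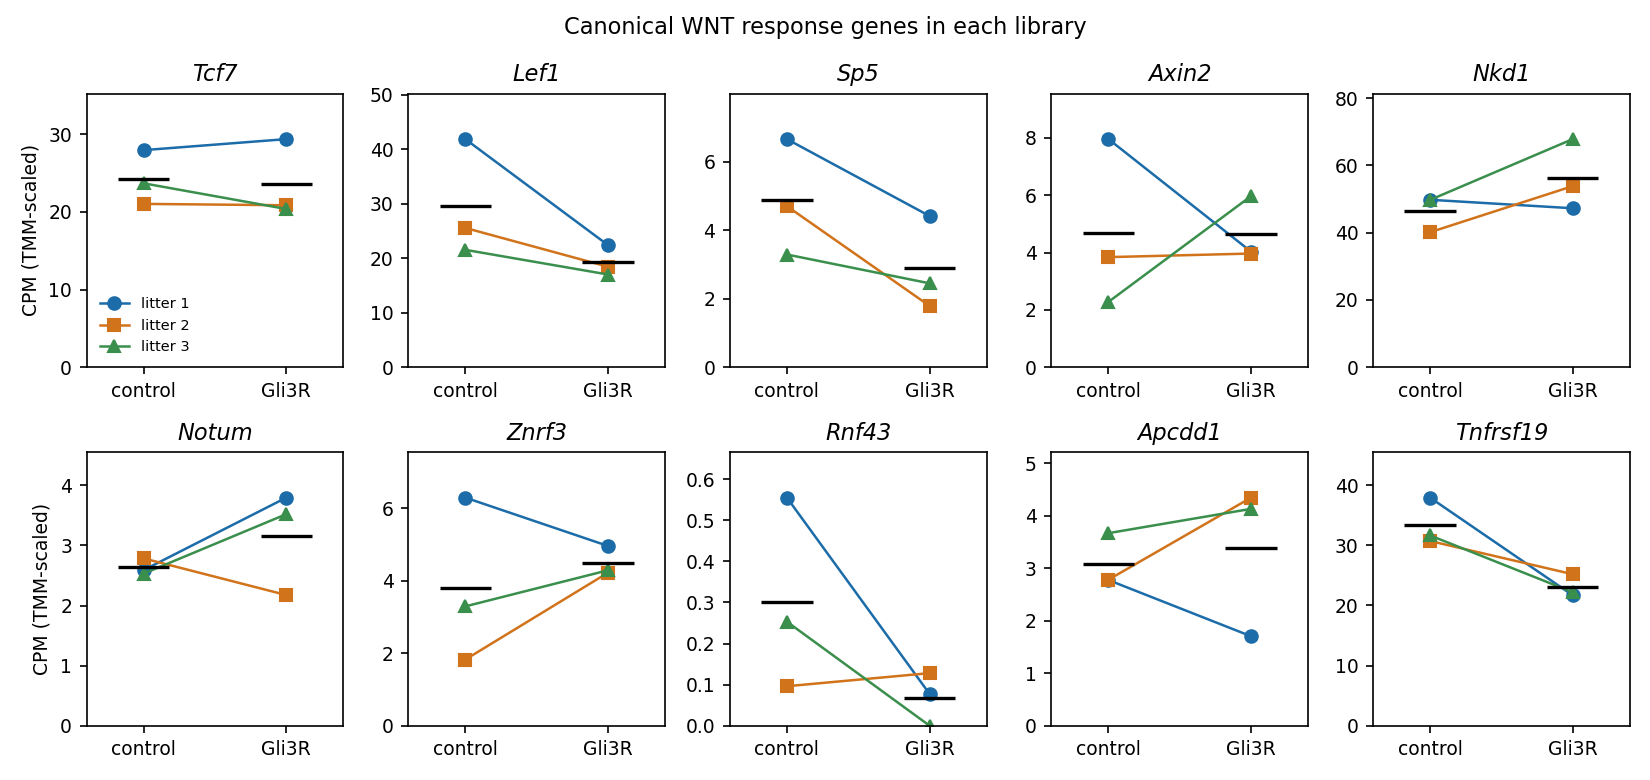
Level of each WNT response gene (vertical axis, CPM with TMM scaling, from 0) in the control and Gli3R library of each litter, joined by a line, with black bars for the mean of 3 libraries. Lef1, Sp5 and Tnfrsf19 slope down in all 3 litters, and the other genes cross.

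Lef1 (Entrez gene 16842) encodes a TCF/LEF transcription factor that is itself induced by WNT. From litter 1 to 3, the control libraries had 41.8, 25.5 and 21.5 CPM, and their Gli3R littermates had 22.4, 18.4 and 17.0 CPM. Control replicate 1 was far above the rest, and the groups overlapped, since Gli3R replicate 1 lay above control replicate 3. The means were 29.6 ± 10.8 and 19.3 ± 2.80 CPM (SD, n = 3 each), and the log2 fold change, -0.59 ± 0.23 (SE), missed the threshold of the edgeR test (adjusted p = 0.678). Without control replicate 1 the log2 fold change was -0.28. With litter as a block its standard error was 0.14 and the adjusted p 0.231.

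Tcf7 (21414), the TCF/LEF gene that encodes TCF1, had means of 24.2 ± 3.49 CPM in the control and 23.5 ± 5.06 CPM in the Gli3R libraries (SD, n = 3 each). Its values were 28.0, 21.0 and 23.7 CPM in the control and 29.4, 20.8 and 20.4 CPM in the Gli3R libraries of litters 1, 2 and 3. Litter 1 was the highest in both groups, and within no litter did the log2 ratio leave the range of -0.22 to 0.07. The log2 fold change was -0.02 ± 0.18 (SE), with an interval (95%, not adjusted) of -0.42 to 0.38. Changes within that interval are not excluded by these libraries.

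Levels of different genes can be compared only per length of transcript, here CPM per kilobase of exon in GENCODE M21. On that scale Tcf7 and Lef1 made up most of the TCF/LEF transcripts, with Tcf7l1, which encodes mainly a repressor, and Tcf7l2 well below them. In control libraries the levels were 9.23 ± 1.33 for Tcf7, 8.45 ± 3.07 for Lef1, 3.08 ± 1.24 for Tcf7l1 and 2.74 ± 0.621 for Tcf7l2 (CPM per kilobase, SD, n = 3). Tcf7 and Lef1 did not differ beyond their spread in the controls, nor did Tcf7l1 and Tcf7l2. Lef1 made up 39.8%, 34.9% and 31.3% of the 4 genes' summed level in control replicates 1, 2 and 3. In Gli3R replicates 1, 2 and 3 its share was 28.2%, 29.3% and 26.7%, below every control. The ratio of Lef1 to Tcf7 ran from 0.681 to 1.12 in the controls and from 0.571 to 0.661 in the Gli3R libraries. This share and this ratio were formed after the values of Lef1 were known and carry no test.

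**Figure D2:**
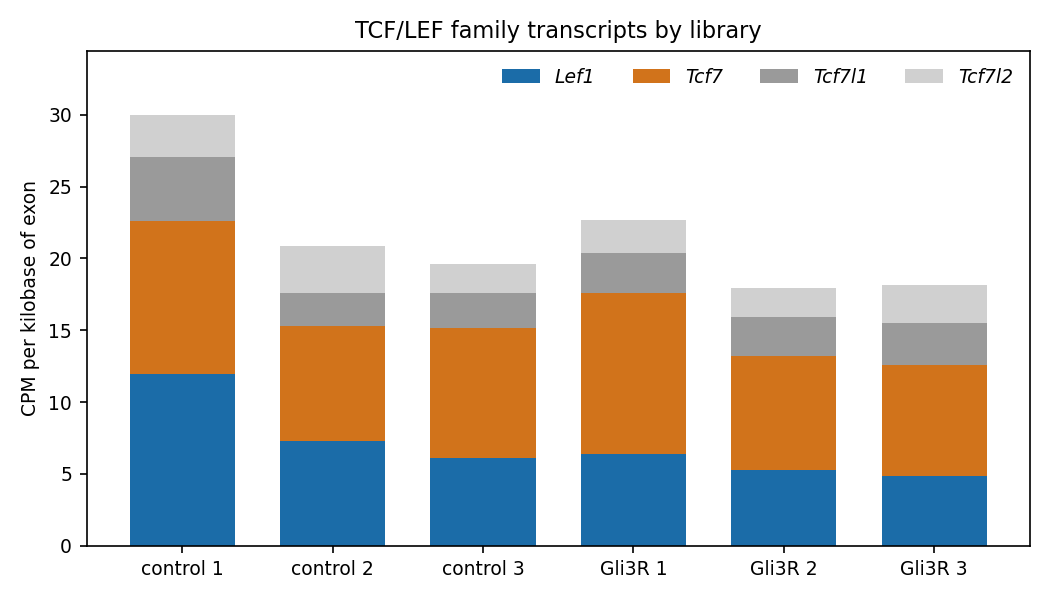
Stacked bars of Lef1, Tcf7, Tcf7l1 and Tcf7l2 in each of the 6 libraries (vertical axis, CPM per kilobase of exon, from 0). Control replicate 1 has the tallest bar, 30.0 against 17.9 to 22.7 in the others, and the Lef1 part is smallest in Gli3R replicate 3.

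Sp5 (64406), a zinc finger transcription factor gene that WNT induces directly in the streak, was sparse and had the lowest log2 fold change of the 9 tested response genes. It had 36, 49 and 26 reads in the control and 57, 14 and 16 reads in the Gli3R libraries, or 6.66, 4.70 and 3.29 CPM against 4.42, 1.79 and 2.45 CPM. Each Gli3R library was below the control of its litter, but Gli3R replicate 1 lay above control replicate 3. The means were 4.89 ± 1.69 and 2.89 ± 1.37 CPM (SD, n = 3 each), and the log2 fold change, -0.67 ± 0.38 (SE), missed the threshold (edgeR quasi-likelihood test, adjusted p = 0.877, or 0.461 with the litter block). It was -0.42 without control replicate 1, -0.43 without Gli3R replicate 2 and -1.18 without Gli3R replicate 1.

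Tnfrsf19 (29820), which encodes the TNF receptor family member TROY, a β-catenin target in other tissues, was the response gene whose groups did not overlap. It stood at 37.9, 30.7 and 31.6 CPM in the control and at 21.7, 25.2 and 22.2 CPM in the Gli3R libraries. Every Gli3R library lay below every control library, as in 6.32% of all genes tested, and Tnfrsf19 was the only one of the 9 for which this held. None of the 9 had every Gli3R library above every control, as in 5.65% of all genes. The means were 33.4 ± 3.93 and 23.0 ± 1.89 CPM (SD, n = 3 each), a 1.45-fold lower level. Its log2 fold change was -0.53 ± 0.13 (SE) and missed the threshold (edgeR quasi-likelihood test, adjusted p = 0.291, or 0.247 with the litter block). Leaving out single libraries gave log2 fold changes from -0.60 to -0.44.

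Axin2 (12006) and Nkd1 (93960) encode feedback inhibitors inside the cell, Axin2 a scaffold of the β-catenin destruction complex and Nkd1 a protein that binds Dishevelled. Axin2, a gene much used as a readout of the pathway, stood at 7.96, 3.84 and 2.28 CPM in the control and at 4.03, 3.97 and 5.97 CPM in the Gli3R libraries. The litters went opposite ways, with log2 ratios of Gli3R to control of -0.98, 0.05 and 1.39 in litters 1, 2 and 3. Control libraries alone spanned 3.49-fold. The log2 fold change was 0.03 ± 0.41 (SE), with an interval of -0.89 to 0.95 that leaves room for a change near 2-fold in either direction. Leaving out single libraries moved it between -0.30 (without control replicate 3) and 0.56 (without control replicate 1).

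Nkd1 was the best covered response gene, with 269 to 610 reads per library. It stood at 49.8, 40.1 and 49.8 CPM in the control and at 47.3, 53.9 and 67.8 CPM in the Gli3R libraries. Gli3R replicates 2 and 3 lay above every control and Gli3R replicate 1 among them. The log2 fold change was 0.27 ± 0.15 (SE) with an interval of -0.07 to 0.61 (edgeR quasi-likelihood test, adjusted p = 0.861), and it was 0.12 without Gli3R replicate 3 and 0.18 without control replicate 2.

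Notum, Znrf3, Rnf43 and Apcdd1 act at or outside the membrane. Notum (77583) encodes a secreted enzyme that removes the lipid of WNT ligands, and it stood at 2.59, 2.78 and 2.53 CPM in the control and 3.80, 2.17 and 3.52 CPM in the Gli3R libraries. The controls were tight, and the Gli3R libraries lay on either side of them, so that the log2 fold change was 0.27 ± 0.30 (SE). It was 0.09 without Gli3R replicate 1 and 0.47 without Gli3R replicate 2. Znrf3 (407821) and Rnf43 (207742) encode related ubiquitin ligases that clear Frizzled receptors from the cell surface. Znrf3 stood at 6.29, 1.82 and 3.29 CPM in the control and 4.96, 4.22 and 4.29 CPM in the Gli3R libraries. Its control values spanned 3.45-fold and enclosed all 3 Gli3R values, with a log2 fold change of 0.33 ± 0.39 (SE) that was 0.85 without control replicate 1 and -0.05 without control replicate 2.

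Rnf43 had 3, 1 and 2 reads in the control and 1, 1 and 0 in the Gli3R libraries, too few to test. The ratio of pooled reads, Gli3R to control, was 0.290, and its 95% exact interval, for counting error alone, ran from 0.0286 to 1.62. Of this pair of paralogs, Znrf3 had the more reads in every library, 19 to 64 against 0 to 3. Apcdd1 (494504), which encodes a membrane protein that inhibits WNT at the receptor, stood at 2.78, 2.78 and 3.67 CPM in the control and 1.70, 4.35 and 4.13 CPM in the Gli3R libraries. Gli3R replicate 1 was below and the other Gli3R libraries above every control, and the log2 fold change, 0.09 ± 0.38 (SE), was 0.46 without Gli3R replicate 1 and -0.16 without Gli3R replicate 2.

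Per kilobase of exon, the 10 genes fell into an abundant and a sparse set in the controls. Nkd1 (10.2 ± 1.22), Tcf7, Lef1 and Tnfrsf19 (7.33 ± 0.861) were within 1.5 times of each other, and none of the neighbours in this order differed beyond their spread. Sp5 followed at 2.33 ± 0.806, then Notum at 1.17 ± 0.0586, Axin2 at 1.10 ± 0.689, Znrf3 at 0.482 ± 0.289, Apcdd1 at 0.283 ± 0.0473 and Rnf43 at 0.0664 ± 0.0514 CPM per kilobase (SD, n = 3). In the Gli3R libraries the order of the first 4 was Nkd1 (12.4 ± 2.30), Tcf7 (8.96 ± 1.93), Lef1 (5.50 ± 0.798) and Tnfrsf19 (5.05 ± 0.415). The last 2 did not differ beyond their spread, and Lef1 lay above Tnfrsf19 in Gli3R replicate 1 alone. In each of these 3 libraries Tcf7 lay above Lef1. The exon length of Apcdd1, 10879 bases over all its listed transcripts, makes its value per kilobase a low estimate if a shorter form is the one expressed. Axin2, Lef1 and Notum share 207, 1208 and up to 653 exon bases with antisense genes, and the strand setting of the counts is not given, so part of their reads could belong to those genes.

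**Figure D3:**
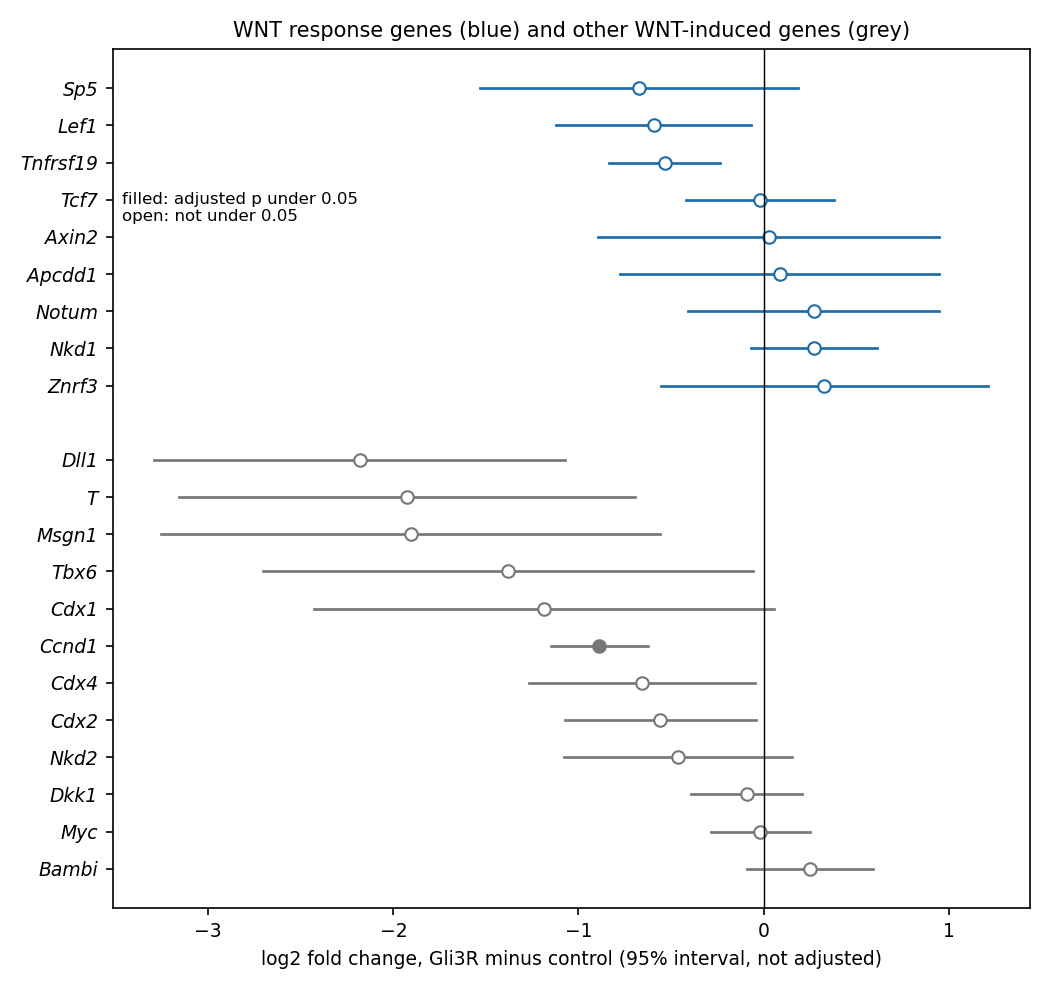
Log2 fold change, Gli3R minus control, with its 95% interval (horizontal axis, not adjusted for multiple tests) for the 9 tested WNT response genes (blue) and 12 other genes known to be induced by WNT (grey); a filled point passed at an adjusted p under 0.05. Ccnd1 is the one filled point, and the response genes lie between -0.67 and 0.33.

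Control replicate 1 stood apart for these genes too. It had the highest control level of 7 of the 9 tested response genes, while 39.3% of all genes tested were highest there. For 1 of the 7, Nkd1, control replicates 1 and 3 were nearly equal (49.79 and 49.75 CPM). Lower values with Gli3R were found for 7 of the 9 in litter 1, for 5 in litter 2 and for 4 in litter 3, against 49.9%, 50.1% and 50.6% of all genes. The median log2 ratio of the 9 was -0.59, -0.01 and 0.17 in litters 1, 2 and 3. Of the 9 genes, 6 changed sign between litters. So did most genes, since 15.3% of all genes tested were lower and 15.0% higher with Gli3R in all 3 litters. The summed level of all 10 genes was 184 CPM in control replicate 1 and between 133 and 148 CPM in the other 5 libraries.

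**Figure D4:**
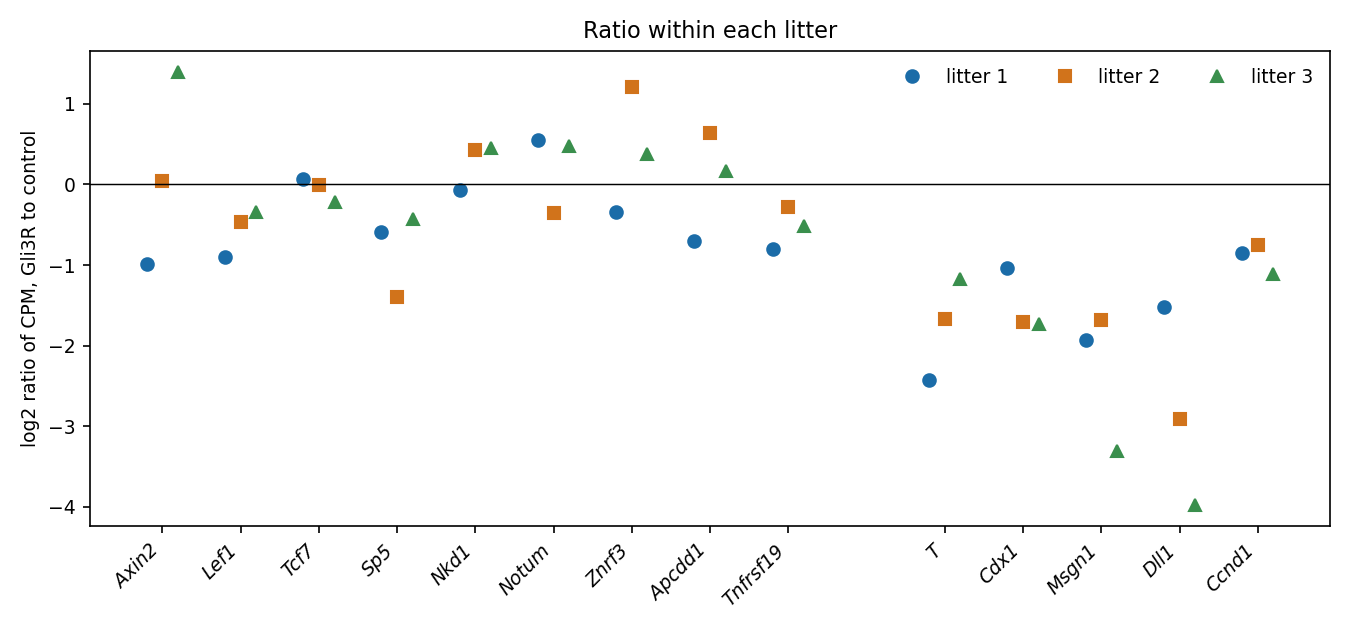
Log2 ratio of CPM, Gli3R to control, within each litter (vertical axis) for the 9 tested WNT response genes and, to the right of the gap, T, Cdx1, Msgn1, Dll1 and Ccnd1. The response genes scatter around 0 except Lef1, Sp5 and Tnfrsf19, and the genes on the right lie below 0 in all 3 litters. Those on the right were picked from the other WNT-induced genes for a small p or a call, so their direction does not describe that list. Of its 12 tested genes, 7 were lower and 1 higher in all 3 litters, beside 15.3% and 15.0% of all genes.

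Markers of the presomitic mesoderm and the streak were lower in the Gli3R libraries as well. The 8 presomitic markers summed to 80.1, 58.7 and 46.6 CPM in the control and 24.2, 13.2 and 8.58 CPM in the Gli3R libraries of litters 1, 2 and 3, and each of the 6 tested had a negative fold change; Dll3, a Notch ligand gene, passed (edgeR quasi-likelihood test). The 10 primitive streak markers summed to 93.5, 44.6 and 33.0 CPM in the control and 33.2, 24.7 and 19.6 CPM in the Gli3R libraries, and 6 of 7 tested had a negative fold change, with 0 called and 1, T, called with the litter block. Control replicate 1 was the highest library for both lists, as it was for Lef1, Sp5, Axin2, Tnfrsf19 and Znrf3. Within the streak list, the WNT ligand gene Wnt3a had 11, 14 and 4 reads in the control and 0 in each Gli3R library, where a count of 0 allows up to 0.237 to 0.455 CPM, and Nodal had 1 read in all. The 8 epiblast and ectoderm markers summed to 136 to 228 CPM in the control and 125 to 145 CPM in the Gli3R libraries, with 0 called and Cdh1, the E-cadherin gene, called lower with the litter block (adjusted p = 0.0869 without it and 0.0327 with it). The 8 extraembryonic mesoderm markers went the other way, from 472 to 621 CPM in the control to 676 to 939 CPM in the Gli3R libraries, with Ahnak called, and with Msx1 and Bmp4 called as well under the litter block (edgeR quasi-likelihood test, adjusted p = 0.0121 and 0.0425, against 0.104 and 0.245 without it). In sorted pools, fewer cells of a type and less RNA per cell cannot be told apart, and the part of these markers in the levels of Lef1, Sp5 and Tnfrsf19 was not tested.

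**Figure D5:**
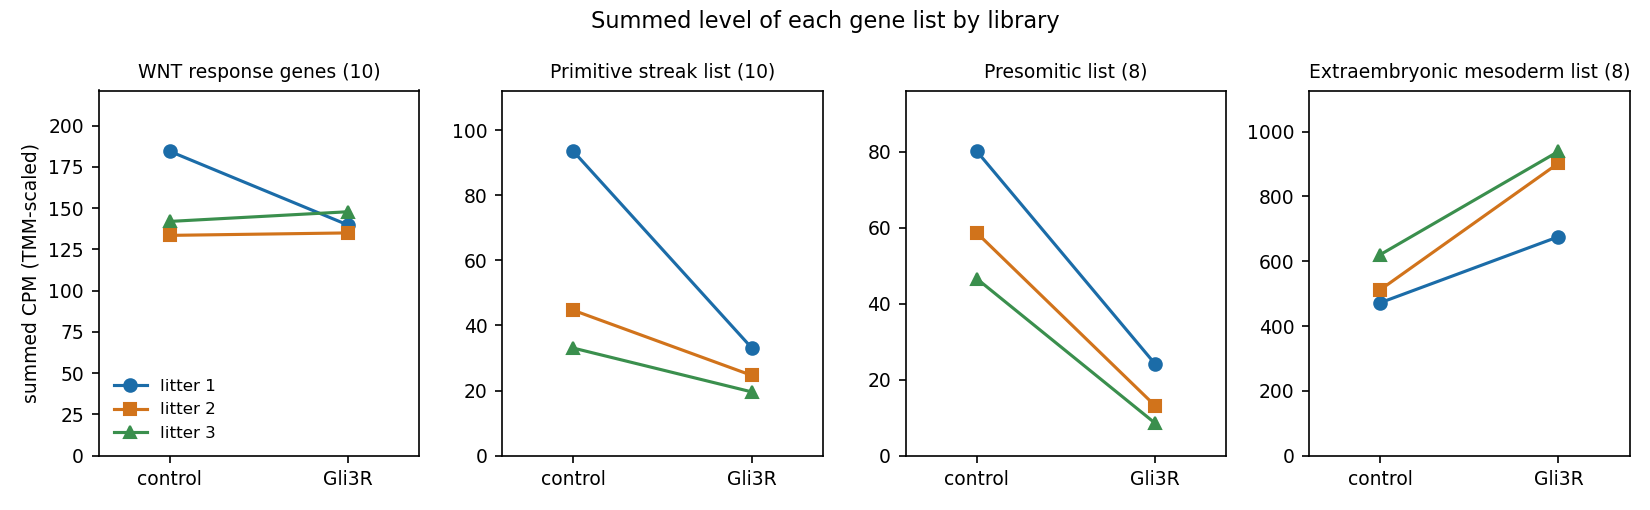
Summed level (vertical axis, CPM with TMM scaling, from 0) of the 10 WNT response genes and of the streak, presomitic and extraembryonic mesoderm marker lists in the control and Gli3R library of each litter. The presomitic sum is lower and the extraembryonic mesoderm sum higher with Gli3R in each litter, while the response genes differ in litter 1 alone by more than 10 CPM.

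A list of genes that help to release, receive and carry the WNT signal showed no change past the threshold. The list holds no Frizzled, WNT ligand or R-spondin gene. Of 29 listed genes of the transduction machinery, 27 were tested. In the edgeR quasi-likelihood test 0 were called without or with the litter block, beside 0.134% and 0.227% of all genes tested, and 0 in DESeq2. Without the block, 2 were lower and 2 higher at an unadjusted p under 0.05, beside 3.29% and 3.57% of all genes. The median log2 fold change of the 27 was 0.01. Ctnnb1, the β-catenin gene, stood at 307 ± 28.6 CPM in the control and 294 ± 26.2 CPM in the Gli3R libraries (SD, n = 3 each) and was named for its role. The 4 genes with the smallest p were Tnks2, which encodes a tankyrase that marks Axin for breakdown (log2 fold change -0.27 ± 0.09, SE), Amer1, which encodes a protein of the destruction complex and the membrane (0.44 ± 0.16), Lgr5, an R-spondin receptor gene (0.62 ± 0.24), and Btrc, which encodes the F-box protein that recognises phosphorylated β-catenin (-0.31 ± 0.13). Lgr5, also known as a WNT target, had 2.98 to 3.70 CPM in the control and 4.49 to 5.51 CPM in the Gli3R libraries. The adjusted p-values of these 4 genes in the edgeR test ran from 0.475 to 0.717.

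Other genes that WNT is known to induce in the streak and its derivatives had mostly negative fold changes, and no test compared them with the 10 response genes. Of 13 listed, 12 were tested, and 11 of these had a negative fold change, as had 51.8% of all genes. The median log2 fold change was -0.77, beside -0.00786 for all genes tested. In the edgeR test without the block, 7 were lower and 0 higher at an unadjusted p under 0.05, beside 3.29% and 3.57% of all genes. The list was chosen with earlier results of these data known. Ccnd1, which encodes cyclin D1, fell: the control mean was 90.4 ± 2.51 and the Gli3R mean 48.7 ± 7.02 CPM (SD, n = 3 each; log2 fold change -0.89 ± 0.12, SE; edgeR quasi-likelihood test, adjusted p = 0.0264). It did not pass without control replicate 2 or 3 or without Gli3R replicate 1, 2 or 3 (adjusted p = 0.197, 0.0629, 0.0788, 0.117 and 0.0715), with log2 fold changes of -0.96 to -0.78 when any 1 library was left out. With litter as a block, T, the Brachyury gene of the streak, and the homeobox gene Cdx1 fell as well (log2 fold changes -1.89 and -1.42, adjusted p = 0.0373 and 0.0327), while without it they stood at -1.93 ± 0.55 and -1.19 ± 0.55 (SE) and did not pass (0.402 and 0.740). Without control replicate 1, and without the block, T stood at -1.08 and Cdx1 at -0.60, and without Gli3R replicate 1 Cdx1 stood at -2.30. The Notch ligand gene Dll1 (-2.18 ± 0.50) and the presomitic transcription factor gene Msgn1 (-1.91 ± 0.60) did not pass in either fit. Msgn1 stood at -1.23 without control replicate 1 and at -2.99 without Gli3R replicate 1. The list mixes direct and indirect targets, and 3 of its members (Tbx6, Msgn1 and Dll1) are shared with the presomitic list. T is shared with the primitive streak list, so its call with the litter block is the same call given there.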

How the data were processed

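The authors deposited raw counts, 1 whole-number value per library and Entrez gene, per the file headers. Build mm9 and, with no roles stated, Subread 1.4.6, featureCounts, TopHat2 2.0.14, edgeR and FastQC are named in the submitters' processing notes. Annotation and strand setting: not given in the sources used here. SMARTer and Nextera XT kits were used, per the labels' protocols, and reads carry no molecular identifiers, so intervals on reads cover counting error only. Library totals of 5481190 to 12635151 make 1 count worth 0.0791 to 0.182 CPM. Symbols turned into dates (27) were restored by Entrez ID.

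Counts were filtered with filterByExpr (minimum count 10), scaled by TMM and tested in R 4.3.3 with edgeR 4.0.16 (glmQLFit, glmQLFTest, two-sided, Benjamini-Hochberg over 11913 genes, threshold 0.05). The steps were tested on simulated data. The labels give each library's litter, so replicate numbers pair libraries, and litter was a block in a second fit. Littermates' deviations from their group means had correlations of 0.168, 0.196 and 0.0744. For control and Gli3R libraries that are not littermates these ran from -0.282 to 0.174, so the pairing rests on the labels. Litters are separate pools of embryos, and p-values reflect the spread between them. Pairs of libraries differed by a chi-square of 4.09 to 14.8 per gene, above sampling noise. Alternatives were DESeq2 1.42.0, its size factors, library size alone, other low-count filters, and leaving out each library or litter. The exon lengths are of GENCODE M21, another build than the counts. The response genes and lists were chosen with earlier results of these data known. Named are the 10 response genes, up to 4 genes with the smallest p of each of the 2 other WNT lists, and any of those lists called in either fit. Ctnnb1, Wnt3a, Nodal, Dll3, Ahnak, Msx1, Bmp4, Cdh1, Ascl2, Elf5, Gli3, Tcf7l1, Tcf7l2, Pdgfra, Hand1, Mesp1, Cer1 and Foxa2 were added.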

Additional observations from a re-analysis of the deposited data

How the results depend on the processing

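No response gene was called under any of the 15 alternatives. With at least 5 CPM in 3 libraries only 4 of the 10 could be tested, and without the low-count filter all 10. The number of response genes at an unadjusted p under 0.05, 2 in edgeR without the block, ran from 1 to 4. Response genes lower in all 3 litters numbered 3 under each scaling and 2 of those left by the 5 CPM filter. Genes called over the whole table, 16, became 27 with litter as a block, 94 in DESeq2, 108 without the low-count filter, 27, 2 and 0 without litter 1, 2 and 3, and 0 to 18 when single libraries were left out (0 without Gli3R replicate 3, with 659 at an unadjusted p under 0.05). The block changed no call of a response gene; among the named genes it added T, Cdx1, Cdh1, Msx1 and Bmp4. Log2 fold changes of Lef1, Sp5, Tnfrsf19, Nkd1 and Notum kept their sign in every fit. Those of Axin2 (-0.30 to 0.56), Tcf7 (-0.22 to 0.0945), Znrf3 (-0.0466 to 0.85) and Apcdd1 (-0.16 to 0.46) took either sign when single libraries were left out. Without litter 2 Apcdd1 stood at -0.22, and without litter 3 Axin2 stood at -0.50 and Tcf7 at 0.0593. The cause was not tested. Rnf43, at 8 reads in all, was too shallow to test; the part of depth in the spread of the other sparse genes was not tested.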
